A study of Mus with 21 samples.

Results

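Cadherins are calcium-dependent adhesion proteins that bind mostly like to like across the gap between neighbouring cells and hold their partners to the actin cytoskeleton through catenins. The classical (type I) members of brain include *Cdh2* (N-cadherin), which keeps radial glia joined at the ventricular surface and is found at synapses, and *Cdh4* (R-cadherin). The type II members, *Cdh6* to *Cdh12* and *Cdh18* here, are known for patchwork expression that marks brain nuclei, cortical layers and neuron classes, and several take part in matching synaptic partners. The genes studied were the 10 rows of the deposited table whose gene name is *Cdh2*, *Cdh4*, *Cdh6*, *Cdh7*, *Cdh8*, *Cdh9*, *Cdh10*, *Cdh11*, *Cdh12* or *Cdh18*, out of 55335 genes listed. All 10 were among the 30552 genes with at least 10 normalised counts summed over the 21 libraries, which were the genes tested.

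The libraries were made from poly(A) RNA of whole brains of female embryos at E17.5, one embryo per library. They comprised 5 *WT* (Wapl +/+; Nipbl +/+), 7 *Wapl*Δ/+ (labelled Wapl +/delta or delta/+; Nipbl +/+), 3 *Nipbl*+/- (Wapl +/+; Nipbl +/delta) and 6 double-heterozygote brains, which carry one deleted copy of each gene. NIPBL loads cohesin, the ring complex that extrudes chromatin loops, and WAPL takes it off again, so the comparisons ask what loss of a copy of either gene does to cadherin RNA and whether the loss of a *Wapl* copy alters the effect of the *Nipbl* mutation. The *Wapl*Δ allele lacks the promoter and the first exons and was made by a cross to *E2a-Cre* mice, so that all cells carry the deletion. The *Nipbl* null allele was made in the germ line of sires carrying *Stra8-icre*, so every mutant embryo inherited it from the father and carries it in all cells. The *Wapl* allele was targeted in 129SV embryonic stem cells and backcrossed to C57BL/6J.

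Total counts on genes ran from 25682566 to 35818767 per library (median 31830396). *Nipbl* RNA was reduced to 54.3% ± 4.52 of the *WT* mean (SD, n = 3) in *Nipbl*+/- brains and to 54.8% ± 1.79 (SD, n = 6) in double heterozygotes, and *Wapl* RNA to 46.7% ± 4.51 (SD, n = 7) in *Wapl*Δ/+ brains and to 49.3% ± 1.90 (SD, n = 6) in double heterozygotes, so the targeted genes matched the labels. The mitochondrial gene *mt-Nd3* divides the libraries into 12 with 0 to 6 counts and 9 with 52 to 106 counts. All 3 *Nipbl*+/- libraries have low *mt-Nd3*, as do *WT* replicates 1 to 3, so their comparison was repeated within that set. Among brains with the *Wapl* deletion the low set holds every library labelled delta/+ and the high set every library labelled +/delta, so for these groups the *mt-Nd3* set and the written order of the alleles cannot be told apart. The paper describes a cross in which the *Wapl* deletion came from the dam and another in which it came from the sire. The labels do not say which cross gave each library.

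The 10 cadherins were measured well above the counting floor in every brain. Raw counts per library ran from 149 to 286 for *Cdh12*, the gene with fewest reads, and from 6171 to 8235 for *Cdh2*, the gene with most. Counts rise with transcript length, and no transcript lengths were used, so these levels are not compared between genes. In *WT* brains the standard deviation over the 5 embryos was 0.936% of the mean for *Cdh4*, 2.03% for *Cdh11* and 3.02% for *Cdh2*, and it reached 8.31% for *Cdh9*, so small shifts were easier to resolve for the first of these than for *Cdh9*. The plot of cadherin RNA in each library gives all 21 values for each gene.

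**Figure D1:**
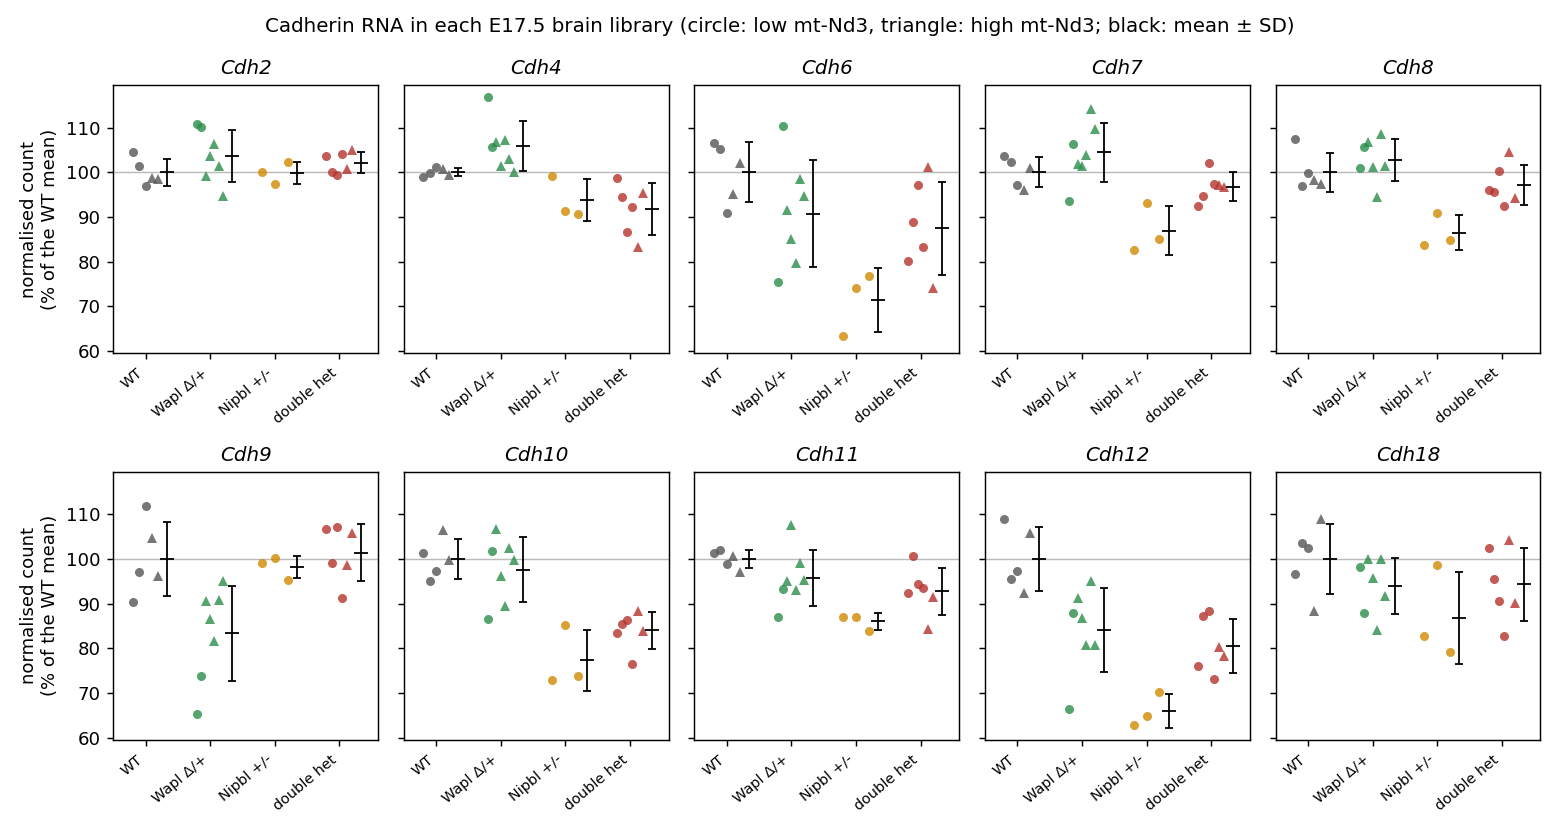
Normalised count of each cadherin in each library as a percentage of the *WT* mean (vertical axis) by genotype group (horizontal axis), with circles for libraries with low *mt-Nd3*, triangles for those with high *mt-Nd3*, and black bars for the group mean ± SD. In *Nipbl*+/- brains *Cdh12* sits at 66.0% and *Cdh6* at 71.4% of *WT*, while *Cdh2* stays at 99.9%, and the double-heterozygote values for *Cdh6* spread from the *Nipbl*+/- range into the *WT* range.

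In *Nipbl*+/- brains 6 of the 10 genes were lower than in *WT* brains at an adjusted *P* below 0.10 and 0 were higher, where 6.96% of all genes tested were called lower and 4.25% higher. The 6 genes were *Cdh12*, *Cdh6*, *Cdh10*, *Cdh11*, *Cdh8* and *Cdh7*, all of type II, and their mean levels lay between 66.0% and 87.0% of *WT*. For each of the 6 every *Nipbl*+/- library was below every *WT* library, a separation that 6.9% of all genes tested showed in that direction. The log2 fold change was below 0 for 10 of the 10 cadherins and for 51.7% of all genes, and its median was -0.21 over the cadherins against -0.01 over all genes. Of the 14542 genes with a mean of at least 100 normalised counts, which include all 10 cadherins, 20.5% were called in either direction, against 11.2% of all genes tested.

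*Cdh6*, a type II cadherin of early forebrain territories and of subsets of projection neurons, had the smallest *P* value of the 10. Its normalised counts were 1291, 1273, 1102, 1152 and 1236 in *WT* replicates 1 to 5 and 766, 896 and 930.35 in *Nipbl*+/- replicates 1 to 3. The lowest *WT* brain thus lay well above the highest *Nipbl*+/- brain, and *Nipbl*+/- replicate 1 was the lowest of all 21 libraries. The log2 fold change was -0.49 (standard error 0.0643, adjusted *P* = 0.000182 in the edgeR quasi-likelihood fit), or 71.4% ± 7.14 (SD, n = 3) of *WT*. Within the low *mt-Nd3* libraries it was -0.51 (adjusted *P* = 0.0034, edgeR).

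*Cdh12*, a type II cadherin expressed chiefly in the nervous system, fell furthest. It had 256, 225, 229, 217 and 249 normalised counts in *WT* replicates 1 to 5 and 148, 153 and 165 in *Nipbl*+/- replicates 1 to 3. The 3 mutant brains lay close together and the groups did not overlap. The log2 fold change was -0.61 (standard error 0.0904, adjusted *P* = 0.000496, edgeR), which left 66.0% ± 3.79 (SD, n = 3) of the *WT* level, and it was -0.61 (adjusted *P* = 0.0065, edgeR) within the low *mt-Nd3* set.

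*Cdh10*, a type II cadherin that is able to bind *Cdh6* and *Cdh9* as well as itself, showed 1171, 1097, 1123, 1230.1 and 1153 normalised counts in *WT* replicates 1 to 5. In *Nipbl*+/- replicates 1 to 3 it had 843, 985 and 852. Replicate 2 was the nearest to *WT* and still fell below the lowest *WT* brain. The log2 fold change was -0.38 (standard error 0.0562, adjusted *P* = 0.00051, edgeR), and -0.34 (adjusted *P* = 0.0111, edgeR) within the low *mt-Nd3* set.

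The other called genes moved by less. *Cdh11*, a type II cadherin of mesenchyme that neurons also express, had 2732, 2753, 2669, 2716 and 2616 normalised counts in *WT* replicates 1 to 5 and 2349, 2348 and 2264 in *Nipbl*+/- replicates 1 to 3. Both groups were narrow and stood apart, and the log2 fold change was -0.22 (standard error 0.0368, adjusted *P* = 0.00106, edgeR). *Cdh8*, which is known from thalamocortical and hippocampal circuits, had 2896, 2613, 2687, 2649 and 2622 normalised counts in *WT* replicates 1 to 5 and 2253, 2447 and 2288 in *Nipbl*+/- replicates 1 to 3. *WT* replicate 1 was high for this gene, the groups did not overlap, and the log2 fold change was -0.22 (standard error 0.0429, adjusted *P* = 0.00415, edgeR). *Cdh7*, known from motor nuclei and other brainstem and spinal neurons, had 643, 635, 603, 596 and 627 normalised counts in *WT* replicates 1 to 5 and 513, 578 and 528 in *Nipbl*+/- replicates 1 to 3.

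*Cdh7* was the least secure of the 6. Its log2 fold change was -0.21 (standard error 0.0565, adjusted *P* = 0.0299, edgeR), and the call was lost when *Nipbl*+/- replicate 1 or replicate 3 was left out (adjusted *P* = 0.171 and 0.132, edgeR). The other 5 kept their calls without any single library. Within the low *mt-Nd3* libraries the same 6 genes were called, with adjusted *P* of 0.0942 for *Cdh7*, 0.0237 for *Cdh8* and 0.0123 for *Cdh11* (edgeR).

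Neither type I gene was called, and 2 type II genes were not called either. *Cdh2* reached 99.9% ± 2.53 (SD, n = 3) of its *WT* level, a log2 fold change of -0.01 whose 95% interval ran from -0.08 to 0.07. The data thus leave room for only small shifts of *Cdh2*, and the sign of its change turned under several alternatives. *Cdh4* had 5369, 4947 and 4907 normalised counts in the 3 *Nipbl*+/- brains against 5360.3 to 5482 in the 5 *WT* brains, and 1 of the mutants overlapped *WT*. Its log2 fold change was -0.10 (adjusted *P* = 0.12, edgeR), and it was called without *Nipbl*+/- replicate 1 (-0.14, adjusted *P* = 0.0438, edgeR). *Cdh18* stood at 86.8% ± 10.4 (SD, n = 3), with a log2 fold change of -0.21 (adjusted *P* = 0.169, edgeR). It had 309, 368 and 296 normalised counts in the mutants, and without replicate 2 it was called (-0.31, adjusted *P* = 0.0247, edgeR). *Cdh9*, known for synapses of hippocampal mossy fibres, had a log2 fold change of -0.03 with a 95% interval from -0.19 to 0.13.

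**Figure D2:**
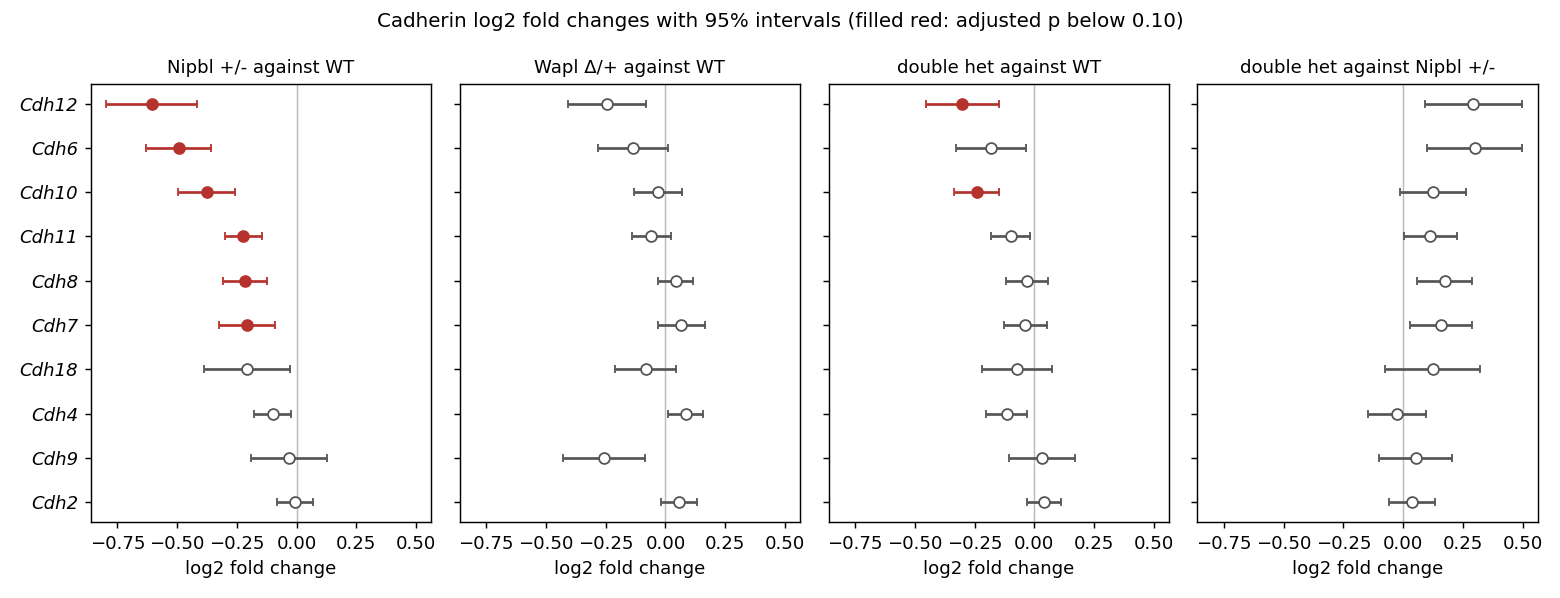
Log2 fold change of each cadherin (horizontal axis) with its 95% interval from edgeR in each of 4 comparisons, one panel each, with filled red points for an adjusted *P* below 0.10. In the first panel 6 genes are called lower and in the third only *Cdh10* and *Cdh12* are. In the fourth panel 9 of 10 points lie above 0 and none is called.

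In *Wapl*Δ/+ brains 0 of the 10 cadherins were called against *WT*, where 2.22% of all genes were called in either direction. The share was 3.82% of genes with a mean of at least 100 normalised counts. DESeq2 called 2, *Cdh9* and *Cdh12*, among 1422 genes in all. In edgeR 3 of the 10 cadherins and 15.6% of all genes had an unadjusted *P* below 0.05. *Cdh9* had a lowest value of 230, a median of 305 and a highest of 335 normalised counts in the 7 *Wapl*Δ/+ brains, against 318, 342, 394, 369 and 339 in *WT* replicates 1 to 5. The *Wapl*Δ/+ values were mostly low but the groups overlapped, and the log2 fold change was -0.26 (adjusted *P* = 0.135, edgeR; 0.0599 by DESeq2). It was -0.52 within the low and -0.17 within the high *mt-Nd3* libraries (adjusted *P* = 0.155 and 0.64, edgeR). *Cdh9* was called with the replicate number as a block (-0.33, adjusted *P* = 0.01, edgeR). It was also called with the *mt-Nd3* set as a term (-0.32, adjusted *P* = 0.0872, edgeR) and without *Wapl*Δ/+ replicate 7 (adjusted *P* = 0.091, edgeR).

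*Cdh12* ran from 156 to 223 normalised counts in *Wapl*Δ/+ brains, with a median of 204. The log2 fold change was -0.24 (adjusted *P* = 0.139, edgeR), and without *Wapl*Δ/+ replicate 6 it was -0.28 (adjusted *P* = 0.0932, edgeR). *Cdh4* leaned the other way, with a lowest of 5413, a median of 5725 and a highest of 6324 normalised counts (log2 fold change 0.09, adjusted *P* = 0.236, edgeR). *Wapl*Δ/+ replicate 1 was the lowest of its group for *Cdh6*, *Cdh7*, *Cdh9*, *Cdh10*, *Cdh11* and *Cdh12* and the highest for *Cdh2* and *Cdh4*. The remaining 7 genes had log2 fold changes between -0.13 and 0.07.

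In double heterozygotes 2 of the 10 cadherins, *Cdh10* and *Cdh12*, were lower than in *WT* and 0 were higher, where 2.46% of all genes were called lower. Of genes with a mean of at least 100 normalised counts, 6.02% were called in either direction. *Cdh10* had a lowest of 884, a median of 978 and a highest of 1021 normalised counts in the 6 brains, all below the lowest *WT* brain at 1097. Its log2 fold change was -0.24 (standard error 0.0452, adjusted *P* = 0.00839, edgeR), the call held without any single library, and within the low and high *mt-Nd3* libraries it was -0.23 and -0.24 (adjusted *P* = 0.0405 and 0.814, edgeR). *Cdh12* had a lowest of 172, a median of 187 and a highest of 208, again all below the lowest *WT* brain at 217. Its log2 fold change was -0.30 (standard error 0.0726, adjusted *P* = 0.0387, edgeR). It was -0.30 in both *mt-Nd3* sets without passing in either (adjusted *P* = 0.179 and 0.814, edgeR), and the call was lost without *WT* replicate 1 (adjusted *P* = 0.125, edgeR).

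*Cdh4* was the third gene whose double-heterozygote values, 4506 to 5346, all fell below the lowest *WT* value of 5360.3. Such a separation held for 3 of 10 cadherins and for 2.29% of all genes, but *Cdh4* did not pass the test (log2 fold change -0.11, adjusted *P* = 0.189, edgeR; 0.0972 by DESeq2). *Cdh6* had a lowest of 898, a median of 1042 and a highest of 1226. Replicates 5 and 3, at 1226 and 1176, were inside the *WT* range, and replicate 6 was near the *Nipbl*+/- brains. The log2 fold change of *Cdh6* was -0.18 (adjusted *P* = 0.231, edgeR), and it was called when replicate 3 or replicate 5 was left out (-0.22 and -0.23, adjusted *P* = 0.0972 and 0.0262, edgeR). *Cdh7*, *Cdh8* and *Cdh11*, which were called in *Nipbl*+/- brains, had log2 fold changes of -0.04, -0.03 and -0.10 in double heterozygotes, with adjusted *P* of 0.785, 0.823 and 0.248 (edgeR).

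The difference that an added *Wapl* deletion makes was tested directly between double heterozygotes and *Nipbl*+/- brains. The *Nipbl*+/- libraries are few, and 0 of the 10 cadherins were called, with 2 genes in all, 0.00655% of those tested. At an unadjusted *P* below 0.05 there were 5 of the 10 cadherins and 4.12% of all genes. *Cdh12* was higher in all 6 double heterozygotes (172 to 208) than in all 3 *Nipbl*+/- brains (148 to 165), and so was *Cdh8* (2489.9 to 2813 against 2253 to 2447). That separation held for 2 of 10 cadherins and 0.897% of all genes. The log2 fold changes were 0.30 for *Cdh6* (95% interval 0.10 to 0.50), 0.29 for *Cdh12* (0.09 to 0.50), 0.17 for *Cdh8* (0.06 to 0.29) and 0.16 for *Cdh7* (0.03 to 0.29), each with an adjusted *P* of 0.971 (edgeR). The cadherin median was 0.12, against 0.00 over all genes. The same 3 *Nipbl*+/- libraries enter the comparison with *WT*, where 6 of the 10 cadherins were called lower. Genes that are low in those libraries by sampling lean towards higher values here. The shares over all genes are therefore not an even base for the cadherins.

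Over group means, double heterozygotes lay between *Nipbl*+/- and *WT* for *Cdh6*, *Cdh7*, *Cdh8*, *Cdh10*, *Cdh11*, *Cdh12* and *Cdh18*, and outside for *Cdh2*, *Cdh4* and *Cdh9*. The *WT* libraries enter both comparisons with *WT*, so this order is a description. Of neighbours in the order for *Cdh6* (*Nipbl*+/-, double heterozygote, *Wapl*Δ/+, *WT*), no adjacent pair passed the test. The contrast of all 4 groups, which asks whether the effect of either deletion differs with the other, called 0 genes with edgeR (0% of all tested), although 13.8% of genes and 5 of 10 cadherins had an unadjusted *P* below 0.05. It was 0.51 for *Cdh12* (standard error 0.12, adjusted *P* = 0.2, edgeR) and 0.41 for *Cdh6* (standard error 0.124, adjusted *P* = 0.2, edgeR), a positive value meaning that the double heterozygote lay above the sum of the single effects. DESeq2 called 793 genes in this contrast, with *Cdh6* the one cadherin among them (0.44, adjusted *P* = 0.0662). Leaving out *Wapl*Δ/+ replicate 2 or double-heterozygote replicate 6 brought *Cdh6* and *Cdh12* past the threshold in edgeR, with adjusted *P* between 0.0721 and 0.0923.

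The mutant groups were also set against each other without *WT* libraries. Of genes with a mean of at least 100 normalised counts, 2.04% were called in either direction between *Nipbl*+/- and *Wapl*Δ/+ brains. Between double heterozygotes and *Wapl*Δ/+ brains that share was 1.79%. Between *Nipbl*+/- and *Wapl*Δ/+ brains *Cdh7*, *Cdh8* and *Cdh10* were lower in *Nipbl*+/- (3 of 10 cadherins against 0.887% of all genes called lower), with log2 fold changes of -0.26, -0.25 and -0.34 and adjusted *P* of 0.085, 0.0195 and 0.0334 (edgeR). All 3 calls were lost within the low *mt-Nd3* libraries, where *Wapl*Δ/+ has only replicates 1 and 2, though the changes there were -0.20, -0.25 and -0.28, and all 3 were lost with the *mt-Nd3* set as a term, under which only *Cdh9* was called, higher in *Nipbl*+/- (0.50, adjusted *P* = 0.085, edgeR). They were also lost without *Nipbl*+/- replicate 1 or 3, the adjusted *P* then lying between 0.148 and 0.465 (edgeR), and the *Cdh7* call was lost without any of 8 of the 10 libraries. Without *Wapl*Δ/+ replicate 1, *Cdh6* and *Cdh12* were called as well (-0.39 and -0.40, adjusted *P* = 0.0458 and 0.0394, edgeR). Between double heterozygotes and *Wapl*Δ/+ brains *Cdh4* and *Cdh10* were lower in double heterozygotes (2 of 10 against 0.812%), by -0.20 and -0.21 on the log2 scale (adjusted *P* = 0.045 and 0.0685, edgeR). The *Cdh4* call was lost without *Wapl*Δ/+ replicate 3 (adjusted *P* = 0.105, edgeR), the *Cdh10* call was lost without any of 7 of the 13 libraries, and neither was called within either *mt-Nd3* set. *Cdh9* pointed the other way in this comparison, at 0.29 (adjusted *P* = 0.115, edgeR), and it was called higher with DESeq2 (adjusted *P* = 0.0252), without a filter, with filterByExpr, in a single fit of all groups, with the replicate number as a block, with the *mt-Nd3* set as a term (0.36, adjusted *P* = 0.0393, edgeR) and without *Wapl*Δ/+ replicate 7.

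Of the 10 cadherin genes, 5 share a chromosome with *Nipbl*. In GRCm38 *Nipbl* occupies chr15:8289824-8465315, and downstream in coordinates lie *Cdh6* at chr15:13028699-13176407, *Cdh9* at chr15:16728550-16857138, *Cdh10* at chr15:18818869-19016206, *Cdh12* at chr15:20448878-21598421 and *Cdh18* at chr15:22548898-23477491. They start 4.563, 8.263, 10.35, 11.98 and 14.08 Mb beyond the end of *Nipbl*. The rest are on other chromosomes, *Cdh4* at chr2:179442423-179899377, *Cdh7* at chr1:109982237-110145272, *Cdh8* at chr8:99024471-99417666, *Cdh11* at chr8:102632095-102785493 and *Cdh2* on chromosome 18. *Cdh6*, *Cdh10* and *Cdh12*, which had the largest changes in *Nipbl*+/- brains, are all of the chromosome 15 group, while *Cdh9*, which lies between *Cdh6* and *Cdh10*, and *Cdh18* were not called. *Cdh7*, *Cdh8* and *Cdh11* were called lower from elsewhere in the genome.

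Other genes near *Nipbl* were called in 22% of cases and those on the rest of its chromosome in 14.5%, shares that were not tested against each other. Of 100 tested genes within 20 Mb, cadherins left out, 20 were lower and 2 higher in *Nipbl*+/- brains, against 64 lower and 58 higher of 841 on the rest of chromosome 15. Those of smallest *P* were *Slc1a3*, the glial glutamate transporter GLAST, 0.169 Mb away (log2 fold change -0.37, adjusted *P* = 0.000205, edgeR), *Lifr*, a cytokine receptor subunit, at 1.09 Mb (-0.30, adjusted *P* = 0.000453, edgeR) and *Npr3*, the natriuretic peptide clearance receptor, at 3.38 Mb (-0.55, adjusted *P* = 0.00238, edgeR). In double heterozygotes 11 of the 100 were lower and 2 higher, against 35 lower and 7 higher of the 841. In *Wapl*Δ/+ brains 4 of the 100 were lower and 1 higher, against 7 lower and 14 higher of the 841. Over all genes tested, 2.46% were called lower in double heterozygotes, and 2.22% in either direction in *Wapl*Δ/+ brains. Linkage of these genes to the deleted *Nipbl* allele goes with the genotype in every library, so an effect of position next to it and an effect of less NIPBL cannot be told apart for the chromosome 15 cadherins.

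**Figure D3:**
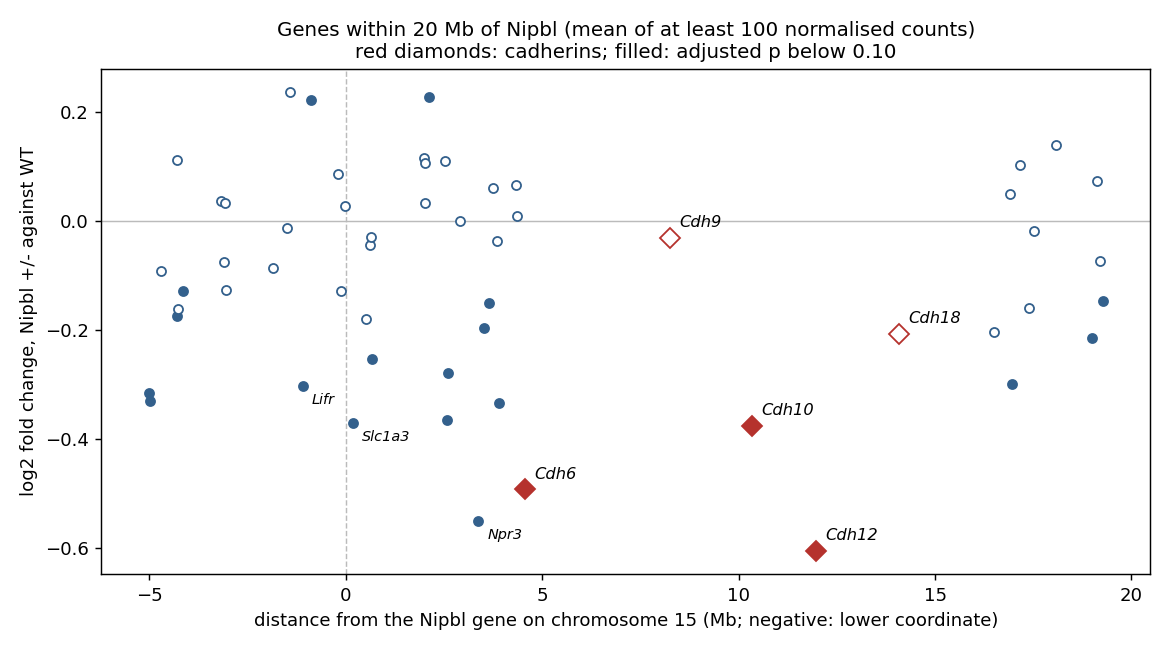
Log2 fold change in *Nipbl*+/- against *WT* brains (vertical axis) against distance from *Nipbl* on chromosome 15 in Mb (horizontal axis), for the cadherins (red diamonds) and other genes with a mean of at least 100 normalised counts (blue circles), filled where the adjusted *P* is below 0.10. *Cdh6*, *Cdh10* and *Cdh12* lie at -0.49, -0.38 and -0.61, and *Cdh9* between them stays at -0.03. Of the 51 other genes 16 are called lower and 2 higher. With the same minimum mean, 61 of 486 genes on the rest of chromosome 15 are lower and 55 higher. Over the whole genome 20.5% of such genes are called in either direction.

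Some of the genes that work with cadherins were called. Over all genes tested, 6.96% were called lower and 4.25% higher in *Nipbl*+/- brains. Of genes with a mean of at least 100 normalised counts, 20.5% were called in either direction. The counts in the short lists below were not tested against these shares. Of 10 other cadherin genes, 2 were lower and 2 higher in *Nipbl*+/- brains. *Cdh20*, a type II gene, was lower at -0.33 (adjusted *P* = 0.00469, edgeR; 337 ± 9.99 normalised counts, n = 3, against 421 ± 20.8, SD, n = 5), and *Cdh13*, which is held in the membrane by a lipid anchor and lacks the catenin-binding tail, was lower at -0.13 (adjusted *P* = 0.0821, edgeR). *Cdh24*, a type II gene, was higher at 0.27 (adjusted *P* = 0.00183, edgeR), and *Cdh5*, the cadherin of endothelium, at 0.16 (adjusted *P* = 0.0368, edgeR). The decrease was thus not shared by every type II cadherin expressed.

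Of 14 catenins and junction partners, 4 were lower and 1 higher in *Nipbl*+/- brains, against 6.96% and 4.25% of all genes tested. *Pkp4*, an armadillo protein of the p120 family, was lower at -0.22, *Vcl* (vinculin) at -0.21, *Afdn* (afadin) at -0.20 and its binding partner *Nectin3* at -0.25, with adjusted *P* of 0.00399, 0.00862, 0.02 and 0.0101 (edgeR). *Arvcf*, another p120-like catenin, was higher at 0.16 (adjusted *P* = 0.0137, edgeR). The core catenins were not called: *Ctnnb1* and *Ctnna1* had log2 fold changes of 0.01, *Ctnna2* 0.03, *Ctnnd1* 0.08 and *Ctnnd2* -0.08.

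Of 10 enzymes that cut or glycosylate cadherins, 4 were lower and 0 higher, against 6.96% and 4.25% of all genes tested. *Tmtc1*, one of a family that adds O-mannose to cadherins, fell by 0.62 on the log2 scale (adjusted *P* = 0.000206, edgeR), from 1262 ± 92.9 normalised counts (SD, n = 5) to 823 ± 139.9 (SD, n = 3). *Tmtc3* of the same family was lower at -0.26 (adjusted *P* = 0.0168, edgeR), and the proprotein convertases *Pcsk5* and *Pcsk6* were lower at -0.34 and -0.29 (adjusted *P* = 0.00571 and 0.031, edgeR). In double heterozygotes the 3 groups had 2, 2 and 1 genes lower (*Cdh13* and *Cdh20*, *Pkp4* and *Nectin3*, *Pcsk5*) and 0 higher, where 2.46% of all genes were called lower. In *Wapl*Δ/+ brains *Cdh5* and *Jup* were higher and *Afdn* lower, where 2.22% of all genes were called in either direction.

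**Figure D4:**
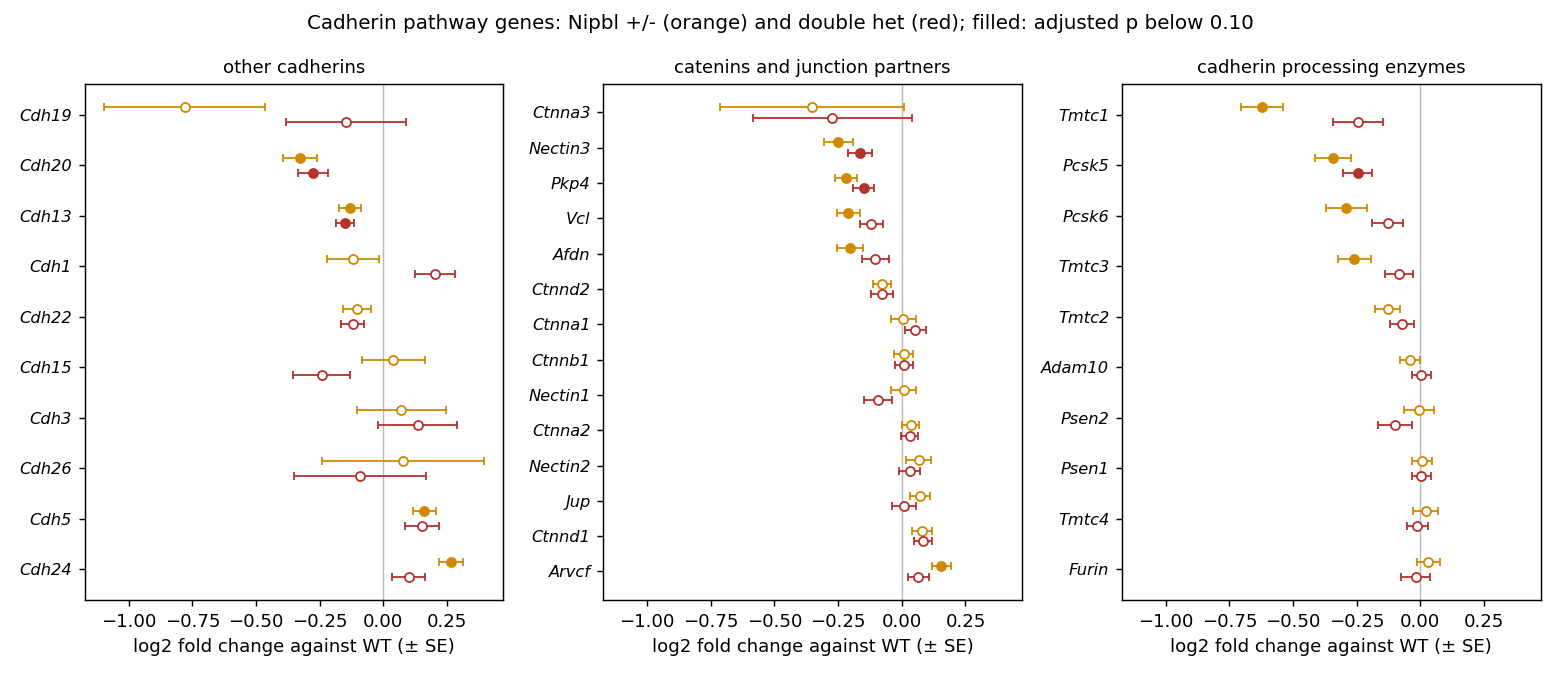
Log2 fold change against *WT* with its standard error (horizontal axis) for the genes of 3 cadherin-related groups in *Nipbl*+/- brains (orange) and double heterozygotes (red), filled where the adjusted *P* is below 0.10. In *Nipbl*+/- brains *Tmtc1* stands at -0.62 and *Cdh20* at -0.33, while the core catenins lie between -0.08 and 0.08.

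The cadherins did not move as one block from brain to brain. Over the 21 libraries, the 45 pairs of the 10 genes had a median Pearson's r of 0.29 on log2 CPM, from -0.73 (*Cdh2* and *Cdh9*) to 0.83 (*Cdh6* and *Cdh12*), and the median was 0.12 once group means were removed. Without group means these last 2 pairs stood at -0.80 and 0.64. *Cdh8* and *Cdh10* had an r of 0.82 (0.71 without group means), and *Cdh7* and *Cdh8* one of 0.80 (0.45). Of 17293 other genes whose mean was 1 CPM or more, those with the pattern most like *Cdh6* were *Osbpl6*, which codes for an oxysterol-binding protein relative, at r = 0.94, *Tmtc1* at 0.94, and *Pds5b*, which codes for a cohesin regulator that binds WAPL, at 0.93. With group means removed the values were 0.93, 0.88 and 0.87. The libraries share depth, dissection and genotype, so these values only describe likeness. *Pds5b* ran from 2452 to 2939 normalised counts in *Nipbl*+/- brains and from 3275 to 3800 in *WT* brains, without overlap (log2 fold change -0.35, adjusted *P* = 0.00112, edgeR). *Osbpl6* and *Tmtc1* were lower too (-0.34 and -0.62, adjusted *P* = 0.00349 and 0.000206, edgeR). All were picked for likeness to *Cdh6* over libraries that include both groups, so their decreases are not evidence apart from that of *Cdh6*.

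Some cell type markers were called in the same libraries. In *Nipbl*+/- brains 11.2% of all genes tested, and 20.5% of those with a mean of at least 100 normalised counts, were called in either direction. The counts in these short lists were not tested against those shares. A whole brain with fewer cells of a type and one with less RNA per cell cannot be told apart in such libraries. In *Nipbl*+/- brains 3 of 5 oligodendrocyte lineage markers and 3 of 5 microglia markers were lower and 0 higher, the lineage sum running from 4469.5 to 5562 normalised counts against 5932 to 6464 in *WT*, and the microglia sum from 1374 to 1555 against 1661 to 1973. Neuronal markers had 2 of 6 lower, with sums of 135350 to 144790 against 144400 to 150650, and radial glia 1 of 6 lower and 2 higher. Of the regional markers, 3 of 7 in thalamus and midbrain were higher and 1 lower (*Rora*), and 2 of 8 in hindbrain and cerebellum were higher. Endothelial, pituitary and blood markers had 0 of 5 called each, pericyte markers 1 of 4 lower, choroid plexus markers 1 of 5 lower, and bone and cartilage markers 1 of 5 lower and 2 higher. The choroid plexus marker was *Prlr*, which lies 1.712 Mb from *Nipbl*, so the limit on genes near *Nipbl* holds for it too. In double heterozygotes, where 2.46% of all genes were called lower, 4 of 5 oligodendrocyte lineage markers were lower (sum 4551 to 5722) and 1 of 5 microglia markers (sum 1444 to 1648). In *Wapl*Δ/+ brains, where 2.22% of all genes were called in either direction, 0 of either list was called. Every marker of the oligodendrocyte, microglia, neuron, radial glia, thalamus and midbrain, and hindbrain and cerebellum lists was detected in each group, and their part in the cadherin changes was not tested. For *Cdh11*, which mesenchymal cells also express, the meningeal fibroblast sum was 17044 to 26539 in *Nipbl*+/- and 16813 to 21933 in *WT* brains, with 1 of 7 markers called higher and 0 lower.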

How the data were processed

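Poly(A) RNA-seq libraries of 21 female E17.5 brains were analysed. The authors trimmed paired-end reads with cutadapt 2.4, mapped them to mm10 (GRCm38.p6) with STAR 2.5.3a and counted them on genes with featureCounts of Subread 1.6.4, and they deposited raw counts per gene without normalization; the strand setting and the handling of reads shared by overlapping genes are not given in the sources used here. The authors' quality control left out a library, not analysed here. In R 4.3.3, counts were TMM-normalised with edgeR 4.0.16, a quasi-likelihood model was fitted to the libraries of each pair of groups (to all 4 groups for the interaction), and genes at a Benjamini-Hochberg adjusted *P* below 0.10 over 30552 genes were called. Normalised counts are counts scaled to the mean effective library size. Total counts were at least 25682566 per library, *Cdh12* and *Cdh9* had the fewest reads of the cadherins, and the p-values measure spread between embryos, counting error included. Gene positions came from a RefSeq table for GRCm38.p6 in which 24076 of the tested symbols were found. The cadherins and gene lists were chosen with earlier results of these data known, and a marker list is not reported here. All 10 cadherins are named, with partner genes called in *Nipbl*+/- brains, the 3 neighbours of smallest *P* and the 3 genes most like *Cdh6*. Replicate numbers were not taken as pairs (8 of 25 same-numbered pairs had correlated deviations over 0.1, with r from -0.23 to 0.40). The replicate 1 libraries of the mutant groups had r of 0.40, 0.33 and 0.25 with each other. Litter is not given in the labels and was not modelled. The alternatives were DESeq2 1.42.0, edgeR with DESeq2 size factors, no filter and filterByExpr, a stricter threshold (0.05), a single fit of 4 groups, the replicate number as a block, the *mt-Nd3* set as a term or as subsets, and leaving out each library.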

Additional observations from a re-analysis of the deposited data

Results flagged for a closer look

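*Cdh4* in *Wapl*Δ/+ replicate 1 stood apart from its group, at 6323.5 normalised counts against 5801.4 in the next library. *Cdh8* in *WT* replicate 1 stood apart likewise, at 2895.8 against 2687 in the next library. Both were marked because the gap to the nearest library was large for the range of the group, in 2 of 30 groups examined, and chance alone marks about 1 group in 20. The *Nipbl*+/- group has too few libraries for this rule and was not examined. Leaving out *WT* replicate 1 kept the *Cdh8* call in *Nipbl*+/- brains.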

How the results depend on the processing

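In the comparison of *Nipbl*+/- with *WT* brains 6 cadherins were called lower under DESeq2, its size factors, both filters, a threshold of 0.05, a single fit, and the *mt-Nd3* term and low set. The replicate number as a block gave 5, and leaving out a library 5 to 7. The high *mt-Nd3* set holds no *Nipbl*+/- library and gave no value. Against the 0 cadherins called in *Wapl*Δ/+ brains, DESeq2 called 2, and the block and the *mt-Nd3* term 1 each, *Cdh9* (0 to 1 with a library left out). Against 2 in double heterozygotes, the block and the low *mt-Nd3* set gave 1 and the high set 0 (1 to 3). Between double heterozygotes and *Nipbl*+/- brains the block called 1, *Cdh6* (0.32, adjusted *P* = 0.0373, edgeR), against 0 (0 to 0). Between double heterozygotes and *Wapl*Δ/+ brains the threshold of 0.05 gave 1 and either *mt-Nd3* set 0, against 2 (0 to 2). There DESeq2, both filters and a single fit gave 3, with *Cdh9* higher added, and the block and *mt-Nd3* term gave 1 lower and 1 higher (*Cdh9*). Between *Nipbl*+/- and *Wapl*Δ/+ brains DESeq2 gave 6, a single fit 5, the *mt-Nd3* term 1 (*Cdh9*, higher, with *Cdh7*, *Cdh8* and *Cdh10* lost) and the low set 0, against 3 (0 to 5). The contrast of 4 groups gave 1 with DESeq2, against 0 (0 to 2). The cause of these moves was not tested, save that subsets hold fewer libraries.

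All genes called against *WT* in *Nipbl*+/- brains went from 3422 to 1658 (single fit), 1893 (block), 1881 (low set), 3904 (no filter) and 1828 to 4788 (without *Nipbl*+/- replicate 1 or 2). In *Wapl*Δ/+ brains they went from 677 to 7 (single fit), 1991 (block) and 9 to 1534 (a library left out), and in double heterozygotes from 1001 to 535 (block), 1 (high set) and 454 to 2504 (a library left out). The contrast of 4 groups went from 0 to 793 (DESeq2) and 945 (without double-heterozygote replicate 6). Between *Nipbl*+/- and *Wapl*Δ/+ brains all genes called went from 354 to 647 (DESeq2), 568 (single fit), 33 (*mt-Nd3* term) and 8 (low set). Between double heterozygotes and *Wapl*Δ/+ brains they went from 311 to 626 (DESeq2), 576 (single fit), 24 (low set) and 29 (high set). Between double heterozygotes and *Nipbl*+/- brains they went from 2 to 59 (block).

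Signs turned only for changes near 0 that were not called. *Cdh2* in *Nipbl*+/- brains was 0.0013 with DESeq2, 0.0015 with its size factors, 0.0019 without a filter and 0.022 in a single fit. In the low set *Cdh7* in *Wapl*Δ/+ brains was -0.012, and between double heterozygotes and *Wapl*Δ/+ brains *Cdh11* was 0.081, *Cdh12* 0.076 and *Cdh18* -0.00098. In the high set *Cdh8* and *Cdh18* in double heterozygotes against *WT* were 0.039 and 0.00048, and *Cdh2* against *Wapl*Δ/+ was 0.029. With a library left out, *Cdh2* and *Cdh9* in *Nipbl*+/- brains ran from -0.018 to 0.015 and from -0.060 to 0.013, *Cdh9* in double heterozygotes from -0.0069 to 0.077, *Cdh4* between double heterozygotes and *Nipbl*+/- from -0.056 to 0.013, and *Cdh6* and *Cdh18* between double heterozygotes and *Wapl*Δ/+ from -0.094 to 0.0043 and from -0.021 to 0.044. Depth limits *Cdh12* and *Cdh9* most.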
